A study of Homo sapiens with 8 samples.

Results

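The miR-34 family was followed in the established human colorectal adenocarcinoma lines DLD1 and HT29 by its 5 mature miRNAs hsa-miR-34a-5p, hsa-miR-34a-3p, hsa-miR-34b-5p, hsa-miR-34b-3p and hsa-miR-34c-5p. Members were chosen by name, and 3 of the 5 (hsa-miR-34a-5p, hsa-miR-34a-3p and hsa-miR-34c-5p) had a row among the 1780 miRNAs counted. The miR-34b arms were not analysed here. Small RNA was sequenced after 6 days of growth of DLD1 cells in a 2D monolayer, DLD1 cells as multicellular spheroids (MCS) on agarose, HT29 cells in 2D, and HT29 cells as MCS, with 2 biological replicates in each of the 4 groups. For 2D, 35000 DLD1 or 100000 HT29 cells were plated in flasks, and for MCS 7000 DLD1 or 3500 HT29 cells were plated in wells of 96 round-bottom well plates. No drug treatment or genetic change was applied, and all groups received medium with serum, glutamine, pyruvate, penicillin and streptomycin. DLD1 cells grew in RPMI and their libraries were made with version 3 of the small RNA kit, whereas HT29 cells grew in DMEM and their libraries were made with version 2, so that cell line, medium and kit cannot be told apart.

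MiRNAs of this family repress mRNAs through base pairing of their seed, bases 2 to 8 from the 5′ end. The 5p strands made from the MIR34A, MIR34B and MIR34C genes are known to lower cyclin-dependent kinases, BCL2, MET and other factors of proliferation and survival, and the family is known for its part in cell cycle arrest and apoptosis. The mRNAs that these miRNAs address were not measured in these libraries.

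The mature sequences are shown because the seed decides which miRNAs can share targets. Which reads are close enough to be confused depends on the whole sequence. The seed is in capitals, and sequences are from RefSeq (GRCh38.p14). The sequences used here held no mature miR-34c-5p, so it is not shown and its seed was not compared. It was grouped with miR-34a-5p below by name. The first pair comes from opposite arms of the hairpin MIR34A, and the second pair from those of MIR34B.
hsa-miR-34a-5p: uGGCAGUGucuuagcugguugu
hsa-miR-34a-3p: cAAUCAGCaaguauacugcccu
hsa-miR-34b-5p: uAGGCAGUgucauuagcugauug
hsa-miR-34b-3p: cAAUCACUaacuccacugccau
The other counted miRNAs with the seed of a member shown above belong to the miR-449 family.
hsa-miR-449a: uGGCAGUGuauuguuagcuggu
hsa-miR-449b-5p: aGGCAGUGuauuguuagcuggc
hsa-miR-449c-5p: uAGGCAGUguauugcuagcggcugu
MiR-449a and miR-449b-5p hold the seed of miR-34a-5p, GGCAGUG, and miR-449c-5p holds that of miR-34b-5p, AGGCAGU, which is the same run of bases moved by 1 position. MiR-34a-5p and miR-449a share their first 9 bases. The seed of the passenger strand miR-34a-3p, AAUCAGC, was found in no other counted miRNA with a RefSeq sequence.

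In GRCh37, MIR34A lies on chromosome 1 from 9211727 to 9211836 on the minus strand, inside an exon of the long non-coding RNA gene MIR34AHG. MIR34B (chromosome 11, 111383663 to 111383746) and MIR34C (chromosome 11, 111384164 to 111384240) lie on the plus strand, 417 bases apart, in exons of MIR34BHG and opposite an intron of BTG4. MIR449A (chromosome 5, 54466360 to 54466450), MIR449B (54466474 to 54466570) and MIR449C (54468090 to 54468181) lie together within an intron of CDC20B, on the minus strand.

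The libraries held 10495634 to 26211524 miRNA counts, and levels are given as CPM, counts scaled to the same miRNA total in each library. Reads counted on a mature miRNA were not divided by its length, and ligation differs between sequences, so CPM of different miRNAs compare reads and not molecules. Intervals on counts cover the counting error of reads within a library only, and not the spread of replicates. PCR duplicates of a molecule were counted as reads, so these intervals can be too narrow for molecules. A share of reads cannot tell fewer cells that express a miRNA from less of it per cell. The HT29 replicates stood further apart than those of DLD1. The 10 most abundant miRNAs took 85.9% and 80.8% of the counts in the replicate 1 libraries of HT29 and 68.0% and 63.9% in the replicate 2 libraries, against 62.9% to 67.4% in DLD1. The replicate spread that edgeR estimated, as a biological coefficient of variation, was 0.521 for HT29 and 0.193 for DLD1. Fixed markers of colonic epithelium (5 of 5 counted) summed to between 32790 and 128816 CPM in a library. Markers of blood, liver, muscle and stroma (6 of 7 counted) summed to 4.87 to 11.6 CPM in DLD1 2D, 13.3 to 14.6 in DLD1 MCS, 24.7 to 50.5 in HT29 2D and 31.4 to 92.0 in HT29 MCS. Of that sum the muscle miRNA miR-1-3p alone gave up to 90.9 CPM, in HT29 MCS replicate 1. The other muscle miRNA, miR-133a-3p, stayed at 0.0393 to 2.04 CPM, with 0.279 CPM in that library. The stromal miRNAs miR-143-3p and miR-145-5p were highest in DLD1 2D replicate 1, at 7.40 and 1.01 CPM. MiR-122-5p of liver stayed at or under 0.880 CPM. MiR-451a of red cells stayed at or under 0.885 CPM and was at 0 in 2 libraries. The part of these other-cell markers in the values below was not tested.

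MiR-34a-5p had the most reads of the 3 counted members in every library. It was counted 2655 and 3857 times in DLD1 2D, and 4503 and 4235 times in DLD1 MCS. In HT29 it was counted 624 and 4214 times in 2D and 825 and 3352 times in MCS. It was thus found in all 8 libraries, and was an abundant miRNA in none of them. Its rank by abundance was between 119 and 152 among the 1061 to 1438 miRNAs detected in a library, and it made up between 0.00595% and 0.0249% of the miRNA counts.

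MiR-34a-3p, the passenger strand of the same hairpin, was scarce. Its counts were 60 and 33 in DLD1 2D, 45 and 43 in DLD1 MCS, 22 and 193 in HT29 2D, and 20 and 85 in HT29 MCS. It reached 10 CPM in 0 of 8 libraries, with levels between 1.30 and 7.36 CPM. MiR-34c-5p was at the limit of detection, with 4 counts in all. It had 1 count in DLD1 MCS replicate 2, 2 counts in HT29 2D replicate 2 and 1 count in HT29 MCS replicate 2, and 0 counts in the other 5 libraries. A count of 0 allows a level of up to 0.118 to 0.286 CPM at these depths (3 counts of the total), so that no difference between groups was detectable for miR-34c-5p, and no fold change is given.

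**Figure D1:**
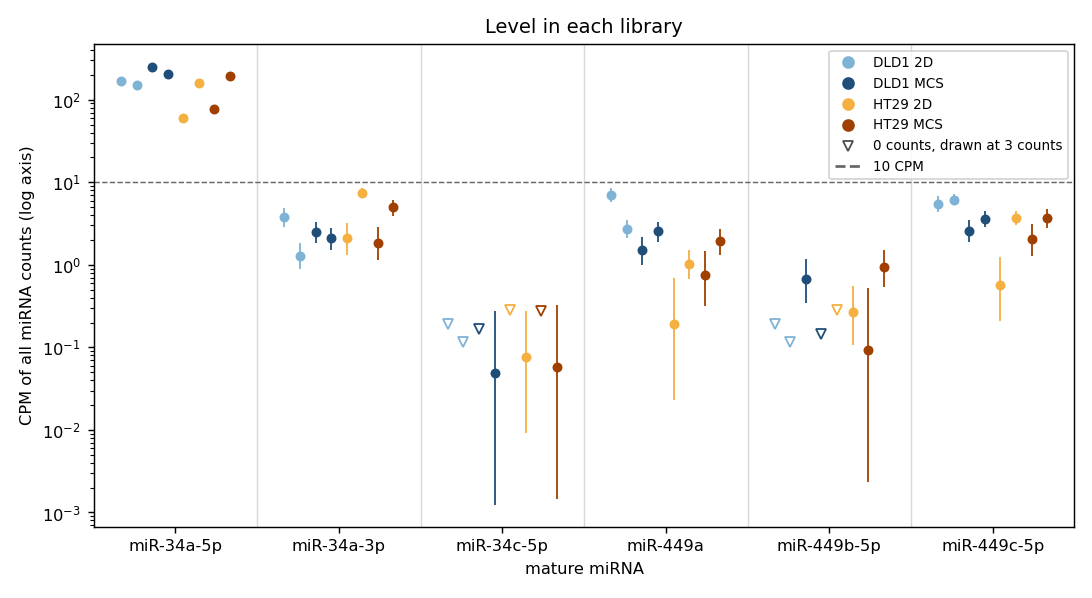
Level of each counted miR-34 member and of the miR-449 miRNAs with a member's seed, in CPM on a log axis, with 1 point per library, 95% Poisson intervals, and open triangles at 3 counts where the count was 0. MiR-34a-5p lies between 59.5 and 249 CPM in the 8 libraries, all other miRNAs shown lie under the dashed line at 10 CPM, and miR-34c-5p has at most 2 counts in a library.

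MiR-34a-5p was higher in DLD1 spheroids than in the DLD1 monolayer, and the replicate libraries of the cultures did not overlap. The level was 168 and 151 CPM in 2D and 249 and 207 CPM in MCS. The means were 160 ± 11.7 CPM in 2D and 228 ± 29.9 CPM in MCS (SD, n = 2). Both MCS libraries thus lay above both 2D libraries. How many of all miRNAs were separated in this way in DLD1 was not counted, so the separation alone says little. The rank by abundance, which does not depend on the scaling, moved from 141 and 152 in 2D to 121 and 119 in MCS. With counts scaled by the upper quartile factors that the study's methods name, the level was 151 and 130 normalized CPM in 2D and 241 and 277 in MCS.

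In DLD1 the fitted log2 fold change of miR-34a-5p was 0.88 (SE 0.25), a fold change of 1.84 (95% interval 1.32 to 2.58), and edgeR's quasi-likelihood test gave an adjusted p = 0.00136. It was called differentially expressed, as an adjusted p under 0.05 together with a change of 1.5-fold or more was called. Of the 346 miRNAs that averaged 10 CPM or more in DLD1, 143 were called (41.3%), and 103 of them were higher in MCS (29.8%). Without DLD1 2D replicate 2, 92 were called. A call was therefore common in this comparison, and 69 miRNAs rose more than miR-34a-5p. The upper quartile scaling placed the median log2 fold change of all tested miRNAs at 0.23. Relative to that median the rise of miR-34a-5p was 0.65. It was 0.64 to 0.66 under TMM factors, RLE size factors, library totals and an upper quartile taken over tested miRNAs alone. Scaling moves all miRNAs together, so this distance could hardly change, and its likeness over the factors is no support for the rise.

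The call for miR-34a-5p in DLD1 depended on where zero was placed and on 1 library. With library totals alone the log2 fold change was 0.51 (adjusted p = 0.0571 in edgeR's quasi-likelihood test), the calls over all miRNAs split into 60 higher and 83 lower in MCS, and miR-34a-5p was not called. With the upper quartile taken over tested miRNAs alone it was 0.42 (adjusted p = 0.144, 49 higher and 93 lower), with TMM factors 0.68 (adjusted p = 0.00836, 76 higher and 62 lower) and with RLE size factors 0.76 (adjusted p = 0.00580, 89 higher and 50 lower). Without DLD1 2D replicate 2, the 2D library with the lower level, it was 0.66 (adjusted p = 0.116). With the spread pooled over all 8 libraries it was 0.86 (adjusted p = 0.127).

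In HT29 cells no difference of miR-34a-5p between the cultures was found beyond the spread of the replicates. The level was 59.5 and 161 CPM in 2D and 76.8 and 195 CPM in MCS, so the replicates of 1 culture differed more than the cultures did. The means were 110 ± 71.6 CPM in 2D and 136 ± 83.7 CPM in MCS (SD, n = 2). Scaling by the upper quartile factors of these libraries, which ran from 0.522 to 1.66, brought the replicates closer, to 114 and 96.8 normalized CPM in 2D and 104 and 125 in MCS, which overlap. The rank was 136 and 139 in 2D, against 139 and 133 for MCS.

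The log2 fold change of miR-34a-5p in HT29 was 0.12 (SE 0.46, adjusted p = 0.977 by edgeR's quasi-likelihood test). The 95% interval of the fold change ran from 0.473 to 2.50 and thus holds the DLD1 fold change of 1.84. None of the 301 miRNAs tested in HT29 was called by edgeR's quasi-likelihood test (0%), 12 had an unadjusted p under 0.05, and edgeR's exact test called 5 and DESeq2 12. The quasi-likelihood test called 1 without HT29 2D replicate 1 and 2 without HT29 2D replicate 2. The difference of the MCS response between the cell lines was tested itself over all 8 libraries. For miR-34a-5p it was -0.79 on the log2 scale (SE 0.42, 95% interval -1.77 to 0.19, HT29 minus DLD1), and its adjusted p was 0.624 by edgeR's quasi-likelihood test (0.101 without adjustment). None of the 397 miRNAs in that test was called (0%), 44 had an unadjusted p under 0.05, and DESeq2 called 22. Leaving out HT29 2D replicate 2 gave 4 calls and leaving out HT29 MCS replicate 2 gave 1. The rise in DLD1 was therefore not shown to be particular to that line.

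**Figure D2:**
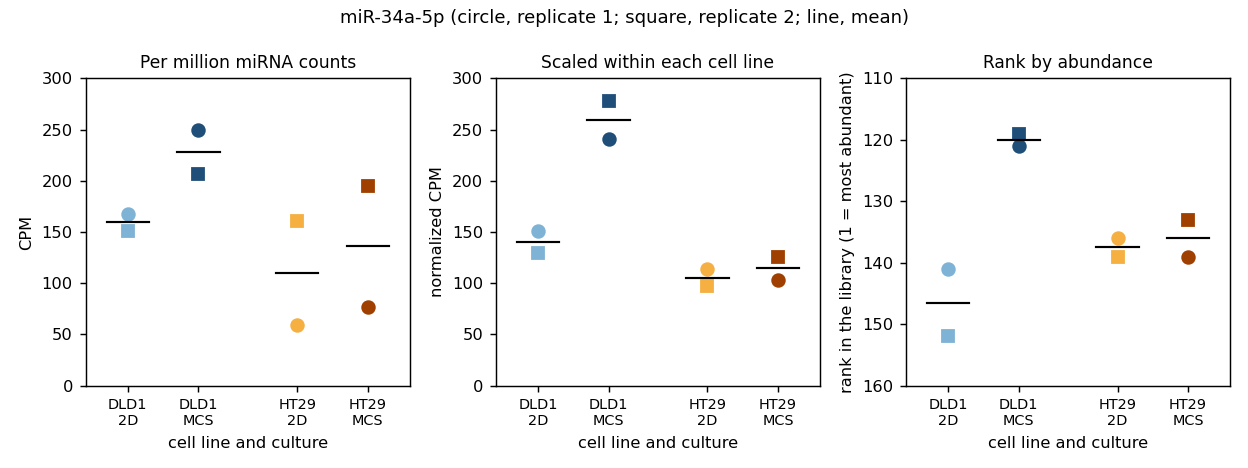
Level of miR-34a-5p by cell line and culture as CPM (left), as normalized CPM scaled within each cell line (middle) and as rank by abundance in the library (right, axis reversed), with circles for replicate 1, squares for replicate 2 and a line at the mean. Both DLD1 MCS libraries lie above both DLD1 2D libraries in all 3 panels, and the HT29 cultures overlap.

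**Figure D3:**
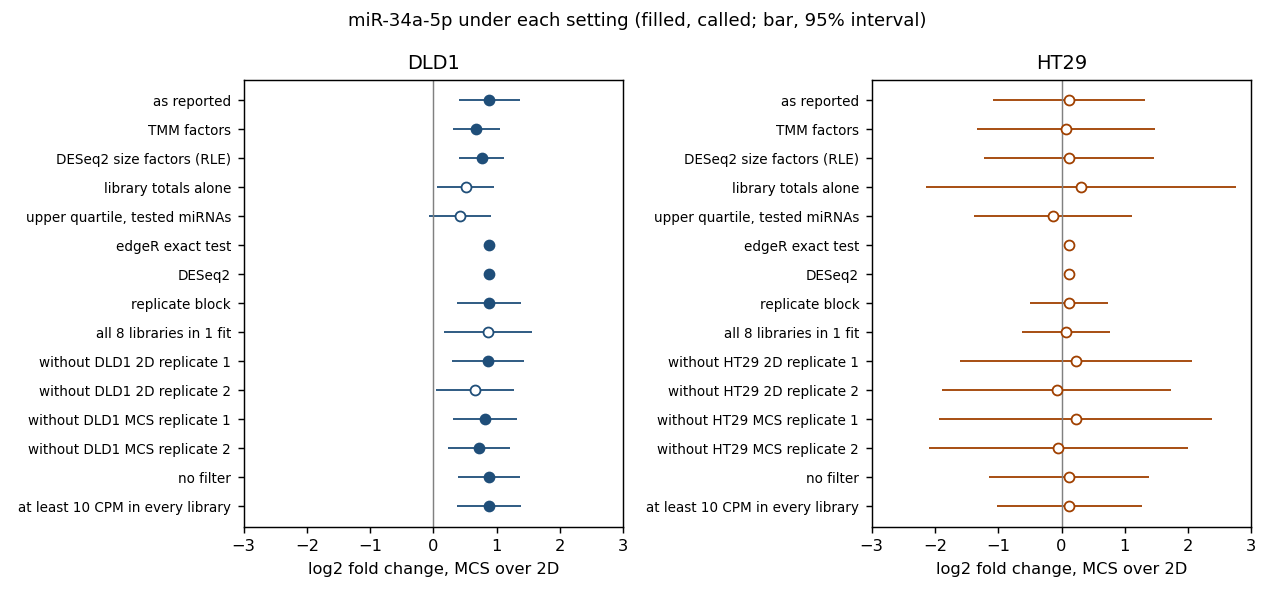
Log2 fold change of miR-34a-5p in MCS over 2D under each processing setting, for DLD1 (left) and HT29 (right), with 95% intervals where the test gives them and filled points where the miRNA was called. DLD1 values run from 0.42 to 0.88 and 10 of 14 alternatives keep the call, whereas HT29 values run from -0.13 to 0.30 with 0 calls.

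Ordered by mean CPM, miR-34a-5p fell from DLD1 MCS (228) over DLD1 2D (160) and HT29 MCS (136) to HT29 2D (110), and the neighbours DLD1 2D and HT29 MCS as well as HT29 MCS and HT29 2D overlapped. With factors over all 8 libraries the order became DLD1 MCS (197 ± 4.84 normalized CPM), HT29 MCS (146 ± 16.7), HT29 2D (139 ± 14.9) and DLD1 2D (109 ± 8.14) (SD, n = 2). On this scale HT29 MCS and HT29 2D overlapped and the other neighbours did not. The position of DLD1 2D thus depended on the scaling. HT29 against DLD1 gave a log2 fold change of 0.36 (SE 0.30, adjusted p = 0.334) in 2D and -0.43 (SE 0.30, adjusted p = 0.248) in MCS in edgeR's quasi-likelihood test. MiR-34a-5p was not called in either culture, although 61.7% of the 397 tested miRNAs were called between the lines in 2D and 59.7% in MCS. With library totals alone the difference in 2D was -0.54, and the median of all tested miRNAs moved from -0.11 to -1.03. In MCS, where that median was -0.42, miR-34a-5p stood 0.01 under it.

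The arms of the MIR34A hairpin were read very unequally in both lines. The hairpin is shown so that their place in it can be seen, with miR-34a-5p and then miR-34a-3p in capitals (RefSeq, GRCh38.p14).
MIR34A: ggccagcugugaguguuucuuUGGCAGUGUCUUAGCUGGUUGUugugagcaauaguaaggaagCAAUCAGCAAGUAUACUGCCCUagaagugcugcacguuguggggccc
The 5p arm took 97.8% (95% Wilson interval 97.2 to 98.3) and 99.2% (98.8 to 99.4) of the reads of both arms in DLD1 2D. In DLD1 MCS it took 99.0% in both libraries (98.7 to 99.3 and 98.6 to 99.3). In HT29 it took 96.6% (94.9 to 97.7) and 95.6% (94.98 to 96.19) in 2D, and 97.6% (96.4 to 98.5) and 97.5% (97.0 to 98.0) in MCS. All 4 DLD1 libraries lay above all 4 HT29 libraries, by a margin between DLD1 2D replicate 1 and HT29 MCS replicate 1 that was smaller than the width of either interval. The group means were 98.5% ± 0.963, 99.0% ± 0.0111, 96.1% ± 0.689 and 97.6% ± 0.0751 in the same order (SD, n = 2). No test was made on this share, other hairpins were not compared, and the kit version changed with the line.

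MiR-34a-3p itself was called in no comparison with upper quartile factors and all libraries, unless the replicate number was added as a block. It did not reach the mean of 10 CPM and was fitted without that filter, where 11.5% of 1492 miRNAs were called in DLD1 and 0.917% of 1636 in HT29. Its log2 fold change in MCS against 2D was 0.22 (SE 0.66, adjusted p = 0.915) in DLD1 and -0.56 (SE 0.69, adjusted p = 0.973) in HT29 in edgeR's quasi-likelihood test. The 2D libraries of DLD1 had 3.79 and 1.30 CPM, on both sides of the 2.49 and 2.101 CPM of MCS. The HT29 libraries had 2.096 and 7.36 CPM in 2D and 1.86 and 4.95 CPM in MCS. Between the lines its log2 fold change was 1.71 (SE 0.69, adjusted p = 0.0550) in 2D, where 23.0% of 1780 miRNAs were called, and 0.88 (SE 0.68, adjusted p = 0.452) in MCS, where 21.8% were. The 2D value passed the threshold in 4 of 13 alternatives, with TMM factors (2.03, adjusted p = 0.0265), with RLE size factors (1.85, adjusted p = 0.0310), with the replicate block (1.78, adjusted p = 0.0288) and without DLD1 2D replicate 1 (2.62, adjusted p = 0.0410), and was 1.1 without DLD1 2D replicate 2 (adjusted p = 0.485). The difference of its MCS response between the lines was -0.83 (SE 0.96, adjusted p = 1.00), in a test that called 1.18% of 1780 miRNAs.

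The miR-449 miRNAs, which can address the same seed matches and are best known from multiciliated epithelia, added little to the reads with the miR-34 seed. MiR-449a was counted 111 and 70 times in DLD1 2D, 27 and 52 times in DLD1 MCS, 2 and 27 times in HT29 2D, and 8 and 33 times in HT29 MCS. MiR-449c-5p was counted 87 and 157 times in DLD1 2D, 47 and 74 times in DLD1 MCS, 6 and 97 times in HT29 2D, and 22 and 63 times in HT29 MCS. MiR-449b-5p was found in 4 of 8 libraries, with at most 16 counts. All of them stayed under 10 CPM in every library.

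Of the summed reads of miR-34a-5p, miR-34c-5p and the 3 miR-449 miRNAs, miR-34a-5p took 93.1% (95% Wilson interval 92.1 to 93.9) and 94.4% (93.7 to 95.1) in DLD1 2D and 98.1% (97.7 to 98.5) and 97.1% (96.5 to 97.5) in DLD1 MCS. In HT29 its share was 98.7% (97.5 to 99.4) and 96.9% (96.4 to 97.4) in 2D and 96.4% (94.9 to 97.4) and 96.7% (96.1 to 97.3) in MCS. The DLD1 2D libraries thus had the lowest shares. The other miRNAs of this class summed to 12.5 and 8.91 CPM there and to 4.76 and 6.21 CPM in DLD1 MCS. How a read that fits several mature miRNAs was counted is not given in the sources used here.

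**Figure D4:**
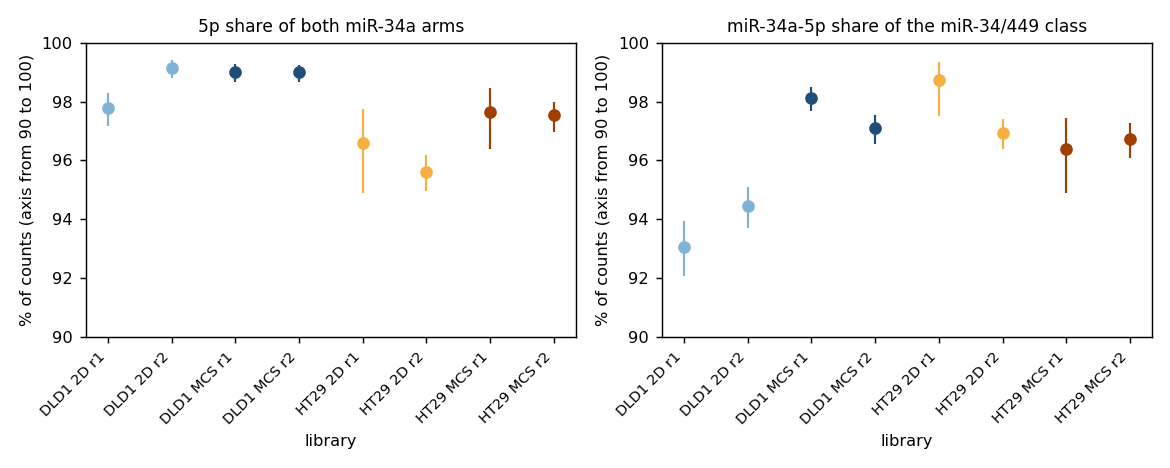
Share of the 5p arm among the reads of both MIR34A arms (left) and of miR-34a-5p among the reads of the combined miR-34 and miR-449 class (right) in each library, in percent with 95% Wilson intervals on axes that start at 90. The 5p share is 97.8 to 99.2% in DLD1 and 95.6 to 97.6% in HT29, and the class share is lowest in the DLD1 2D libraries.

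In MCS against 2D, neither miR-449a nor miR-449c-5p was called in either line. The log2 fold change of miR-449a was -0.84 (SE 0.57, adjusted p = 0.530) in DLD1 and 1.08 (SE 0.91, adjusted p = 0.973) in HT29 in edgeR's quasi-likelihood test without a filter. That of miR-449c-5p was -0.48 (SE 0.50, adjusted p = 0.719) in DLD1 and 0.54 (SE 0.73, adjusted p = 0.973) in HT29. Between the lines in 2D, miR-449a was lower in HT29 by the same test (log2 fold change -2.21, SE 0.83, adjusted p = 0.0373), at 0.191 and 1.03 CPM against 7.02 and 2.75 CPM. This call rested on few reads. It was lost without DLD1 2D replicate 1 (-1.43, adjusted p = 0.395), without either HT29 2D library (-2.00 and -2.79, adjusted p = 0.149 and 0.126), with TMM factors (-1.79, adjusted p = 0.114), with RLE size factors (-2.03, adjusted p = 0.0529) and in DESeq2 (-2.24, adjusted p = 0.0762).

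The fixed markers of colonic epithelium moved with miR-34a-5p in DLD1. Their summed level was 59185 to 70356 CPM in DLD1 2D and 105087 to 108544 CPM in DLD1 MCS, and 32790 to 59592 CPM in HT29 2D and 97958 to 128816 CPM in HT29 MCS. In DLD1 spheroids 5 of the 5 were called higher, against 29.8% of all tested miRNAs. Their median log2 fold change was 1.24 against 0.23 over all tested. The number called higher was 3 with the upper quartile of tested miRNAs alone (median 0.78) and 1 with all 8 libraries in 1 fit (median 1.21). Calls were also lost without DLD1 2D replicate 1 (median 1.33) and without DLD1 2D replicate 2 (median 1.09). In HT29 0 of 5 were called by edgeR's quasi-likelihood test, with a median of 1.47 against 0.03. There miR-200c-3p was at -0.07 (SE 0.57), and the other markers lay between 0.88 (miR-141-3p) and 1.80 (miR-375). DESeq2 called miR-375, and a fit with the replicate number as a block called 3 of 5 and 47 miRNAs in all. MiR-192-5p, which marks differentiated gut epithelium, rose from 817 and 753 CPM in DLD1 2D to 3155 and 2954 CPM in MCS (log2 fold change 2.34, SE 0.24, adjusted p = 6.15e-19 in edgeR's quasi-likelihood test). With all 8 libraries in 1 fit miR-192-5p was not called. MiR-141-3p of the miR-200 family, which represses the ZEB factors of epithelial-mesenchymal transition, rose by a log2 fold change of 0.98 (SE 0.23). Among these markers this was the value nearest to that of miR-34a-5p. MiR-141-3p was not called without DLD1 2D replicate 2 (0.50), with the upper quartile of tested miRNAs alone or with all 8 libraries in 1 fit. The part of these markers in the rise of miR-34a-5p was not tested.

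The miRNAs whose course over the 8 libraries was most like that of miR-34a-5p were miR-30c-5p, miR-361-5p and miR-374a-5p. Likeness was the root mean square difference of log2 normalized CPM after the mean of each cell line was taken away, among 249 miRNAs that averaged 10 CPM or more in both lines. It was 0.13 for miR-30c-5p, 0.17 for miR-361-5p and 0.17 for miR-374a-5p, against a median of 0.52 over the 249. The log2 fold change in MCS was 0.66 (SE 0.23), 0.90 (SE 0.23) and 1.10 (SE 0.24) for these 3 in DLD1 and 0.27 (SE 0.39), 0.16 (SE 0.43) and 0.40 (SE 0.44) in HT29. They were chosen for this likeness, so these values are a description.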

How the data were processed

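Per the labels and the study's methods, the authors trimmed reads, removed those under 15 nucleotides or under quality 25, aligned the rest to GRCh37 and to mature miRNAs of miRBase version 21, and deposited unnormalized counts of reads on each mature miRNA. The submitters' processing notes list cutadapt 1.11, Bowtie2 2.1.0, CASAVA 1.8.3 and edgeR 3.4.2. The 15 entries that name no miRNA (0.00988% of HT29 2D replicate 2, 0 counts elsewhere) were left out. For miR-34a-5p, precision is set by the spread of 2 replicates rather than by depth. For the scarce miRNAs the low counts limit it as well.

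MCS and 2D were compared within each line by edgeR 4.0.16 (quasi-likelihood test, R 4.3.3), with upper quartile factors over miRNAs with at least 1 count. The lines, and the difference of their responses, were tested in 1 fit of all 8 libraries over miRNAs with a mean of 10 CPM in at least 1 line. P-values were adjusted over all tested miRNAs (Benjamini-Hochberg). Scarce members were fitted without the filter. Alternatives were TMM, RLE, library totals, an upper quartile over tested miRNAs, edgeR's exact test, DESeq2 1.42.0, other filters, the replicate block, 1 fit of all libraries, and leaving out each library. The test was tried on simulated counts. Named were the members, miRNAs with a member's seed, the fixed cell type markers (those given with values were chosen after these were seen), and the 3 miRNAs most like miR-34a-5p. Some planned lists are not reported here. Members and lists were chosen with earlier results of these data known. Loci are from GENCODE 44 lifted to GRCh37.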

Additional observations from a re-analysis of the deposited data

Results flagged for a closer look

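MiR-449c-5p drew attention because its upper quartile scaled level lay lower in both DLD1 MCS libraries than in both 2D libraries (2.51 and 4.85 against 4.96 and 5.28 normalized CPM) and higher in both HT29 MCS libraries (2.76 and 2.36 against 1.09 and 2.23). The difference of the responses was 1.01 on the log2 scale (HT29 minus DLD1, SE 0.97, 95% interval -0.88 to 2.90, adjusted p = 1.00 by edgeR's quasi-likelihood test), so the opposite directions were not shown to differ. In CPM the HT29 cultures overlapped. How many of all miRNAs were separated in opposite directions in this way was not counted. Groups of 2 libraries were too small for a search for outlying samples.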

How the results depend on the processing

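The log2 fold change of miR-34a-5p in DLD1 stayed above 0 in 14 of 14 alternatives, and the call was lost with library totals alone (0.51), with the upper quartile of tested miRNAs alone (0.42), with all 8 libraries in 1 fit (0.86) and without DLD1 2D replicate 2, the values without 1 library running from 0.66 to 0.87. In HT29 it was never called, and its sign turned with the upper quartile of tested miRNAs alone (-0.13) and without either replicate 2 library, with a range of -0.08 to 0.23 without 1 library. HT29 against DLD1 in 2D turned to -0.54 with library totals. The scaling moves all miRNAs together, and the cause of the other changes was not tested.

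The labels give same-numbered libraries a shared number, and do not say whether these libraries were grown or prepared together. The deviations of same-numbered libraries from the group means correlated at 0.338 over the tested miRNAs in DLD1 and 0.788 in HT29. The fits without the replicate block take no account of this, and its cause was not tested. With the replicate block, miR-34a-5p was at 0.88 in DLD1 (adjusted p = 0.0156) and 0.12 in HT29 (adjusted p = 0.843) by edgeR's quasi-likelihood test, and the HT29 calls over all miRNAs rose from 0 to 47, among them 3 of the 5 epithelial markers (miR-375, miR-192-5p and miR-194-5p).

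Calls in DLD1 fell from 143 to 34 with all 8 libraries in 1 fit and ranged from 92 to 124 without 1 library. In HT29 they were 5 in edgeR's exact test, 12 in DESeq2, 15 without a filter and 0 to 2 without 1 library. Calls between the lines were 245 in 2D and 237 in MCS with the filter, and 409 and 388 without it. Leaving out 1 library moved the filtered counts in both directions. Calls for the difference of the responses were 2 with TMM factors, 2 with RLE size factors, 22 in DESeq2, 21 without a filter and 0 to 4 without 1 library. Group means of the 5p share were 97.8 to 99.2%, 99.0%, 95.6 to 96.6% and 97.5 to 97.6% without 1 library.

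Of the scarce miRNAs, miR-34a-3p in DLD1 turned to -0.14 with library totals and ranged from -0.51 (without DLD1 2D replicate 2) to 1.10 without 1 library. Between the lines in MCS, miR-449a turned to 0.06 with TMM factors and ranged from -0.77 to 0.32 (without DLD1 MCS replicate 2) without 1 library, and miR-449c-5p to -0.12 with library totals and ranged from -0.12 (without DLD1 MCS replicate 1) to 0.68. None of these was called.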
